A study of Mus musculus with 24 samples.

Results

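Foxd1, Foxf1, Foxc2, Zic1, Six2, Sim2, Nkx3-2, Meox1 and Meox2 encode transcription factors that mark particular regions of the embryonic mesenchyme. They were followed in primary cultures of mouse embryonic fibroblasts (MEFs), the mixed mesenchymal cells that grow from minced embryos. These 9 genes, of 45706 in the deposited gene table, were picked by name because several of them switched between days in the KO cultures. The differences between days within KO are therefore values that chose the genes; they are given as a description and support nothing.

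The genotypes were cGAS KO and WT, both of a strain written C57B1/6 in the labels. cGAS, encoded by Mb21d1, is an enzyme that senses DNA in the cytosol, and the series concerns its part in senescence, the lasting growth arrest of stressed cells. RNA of KO cells and of WT cells was taken on days 33, 36 and 42 of culture, at passages 11, 12 and 14, all under 20% oxygen. The sources used here give neither the KO allele nor the age and number of the embryos or cultures. Each genotype and day has 4 numbered samples, 24 in all, and they differed by less than the sampling noise of counting. They were therefore summed and counted as 1 library, which leaves 1 library for each day of a genotype, and n = 3 days per genotype.

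Regional transcription factors are switched on when the mesoderm of the embryo is divided into somites, limb buds, gut wall, kidney and head mesenchyme. Fibroblasts grown from an embryo keep much of this positional pattern, so a bulk culture carries a mixture of regional codes. Forkhead (Fox), zinc finger (Zic) and homeobox (Six2, Nkx3-2, Meox) proteins bind DNA directly. Sim2 is a bHLH-PAS protein that binds DNA as a partner of Arnt or Arnt2.

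The promoters of 4 genes that were low in KO after day 33 are shown because these genes moved together there, and CG dinucleotides are in capitals. Each is the 250 bases before the RefSeq gene start (GRCm38.p6), written in the direction of transcription. The Foxd1 promoter lies at chr13:98353995-98354244 on the plus strand, and that of Zic1 at chr9:91365769-91366018 on the minus strand. The Six2 promoter lies at chr17:85688255-85688504 on the minus strand, and that of Meox2 at chr12:37108290-37108539 on the plus strand.
Foxd1: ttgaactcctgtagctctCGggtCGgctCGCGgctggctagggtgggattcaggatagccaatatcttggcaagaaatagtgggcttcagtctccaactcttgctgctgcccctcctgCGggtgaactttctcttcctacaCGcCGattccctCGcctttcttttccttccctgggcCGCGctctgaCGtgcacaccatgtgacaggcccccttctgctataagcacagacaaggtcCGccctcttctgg
Zic1: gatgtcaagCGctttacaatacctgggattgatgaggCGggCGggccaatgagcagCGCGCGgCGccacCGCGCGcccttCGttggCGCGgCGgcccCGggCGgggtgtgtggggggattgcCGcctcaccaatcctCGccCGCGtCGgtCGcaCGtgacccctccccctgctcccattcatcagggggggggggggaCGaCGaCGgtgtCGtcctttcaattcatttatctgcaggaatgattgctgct
Six2: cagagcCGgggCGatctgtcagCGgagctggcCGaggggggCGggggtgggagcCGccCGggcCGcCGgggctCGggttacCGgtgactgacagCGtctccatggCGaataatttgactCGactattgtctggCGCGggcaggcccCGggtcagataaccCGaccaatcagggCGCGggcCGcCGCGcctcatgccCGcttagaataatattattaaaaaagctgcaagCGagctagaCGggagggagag
Meox2: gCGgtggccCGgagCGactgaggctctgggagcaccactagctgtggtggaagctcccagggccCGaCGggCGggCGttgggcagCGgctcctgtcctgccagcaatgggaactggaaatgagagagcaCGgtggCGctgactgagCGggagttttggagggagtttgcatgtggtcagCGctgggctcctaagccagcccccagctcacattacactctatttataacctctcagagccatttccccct

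The 4 sequences were unlike in CG content. Zic1 held 27 CG dinucleotides and Six2 held 26, counts that 8.56% and 9.59% of 32851 mouse promoters of this length reached. Foxd1 and Meox2 held 12 each, which 33.5% of promoters reached, against a median of 6. The promoter table matched 5 of the 9 genes, the other being Nkx3-2, with 21. Foxf1, Foxc2, Sim2 and Meox1 are named only. The motifs below were searched for on both strands of the 5 promoters. The letters TATAAA, held by 12.4% of all promoters on either strand, were in that of Meox2 only. There they lie on the strand opposite to the printed one, which reads TTTATA. None of the 5 held GTAAACA (a forkhead motif, in 3.17% of promoters), TAATTA (a homeodomain motif, in 4.84%) or TGGGTGGTC (a GLI motif, in 0.225%). A match or its lack describes these windows only.

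The 6 libraries held between 25651250 counts (KO day 36) and 48717439 counts (WT day 33). Values are CPM, counts scaled to the library total and its TMM factor (0.927 to 1.08). In KO, Mb21d1 stood at 0.233, 0.0171 and 0.136 CPM over the 3 days, against 4.75, 4.08 and 4.82 CPM in WT. Its log2 fold change was -5.11 ± 0.62 (SE, adjusted p = 0.0102 by edgeR), and leaving out KO day 42 ended this call. Fibroblast collagens were abundant in all libraries: the 8 fibroblast markers summed to 22040, 16500 and 18070 CPM in KO, against 21440, 20410 and 23000 CPM in WT, with none at 0. Col1a1, Col1a2 and Col3a1 carried this sum. A pair of sex-linked genes, chosen after their values were seen, also set the genotypes apart. Xist, the RNA of the inactive X chromosome, was at 478, 465 and 640 CPM in KO, against 0.362, 0.172 and 0.0593 CPM in WT. The Y-linked gene Uty was at 2.89, 2.90 and 2.68 CPM in KO, against 32.0, 29.9 and 30.7 CPM in WT. Genotype and these levels cannot be told apart.

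**Figure D1:**
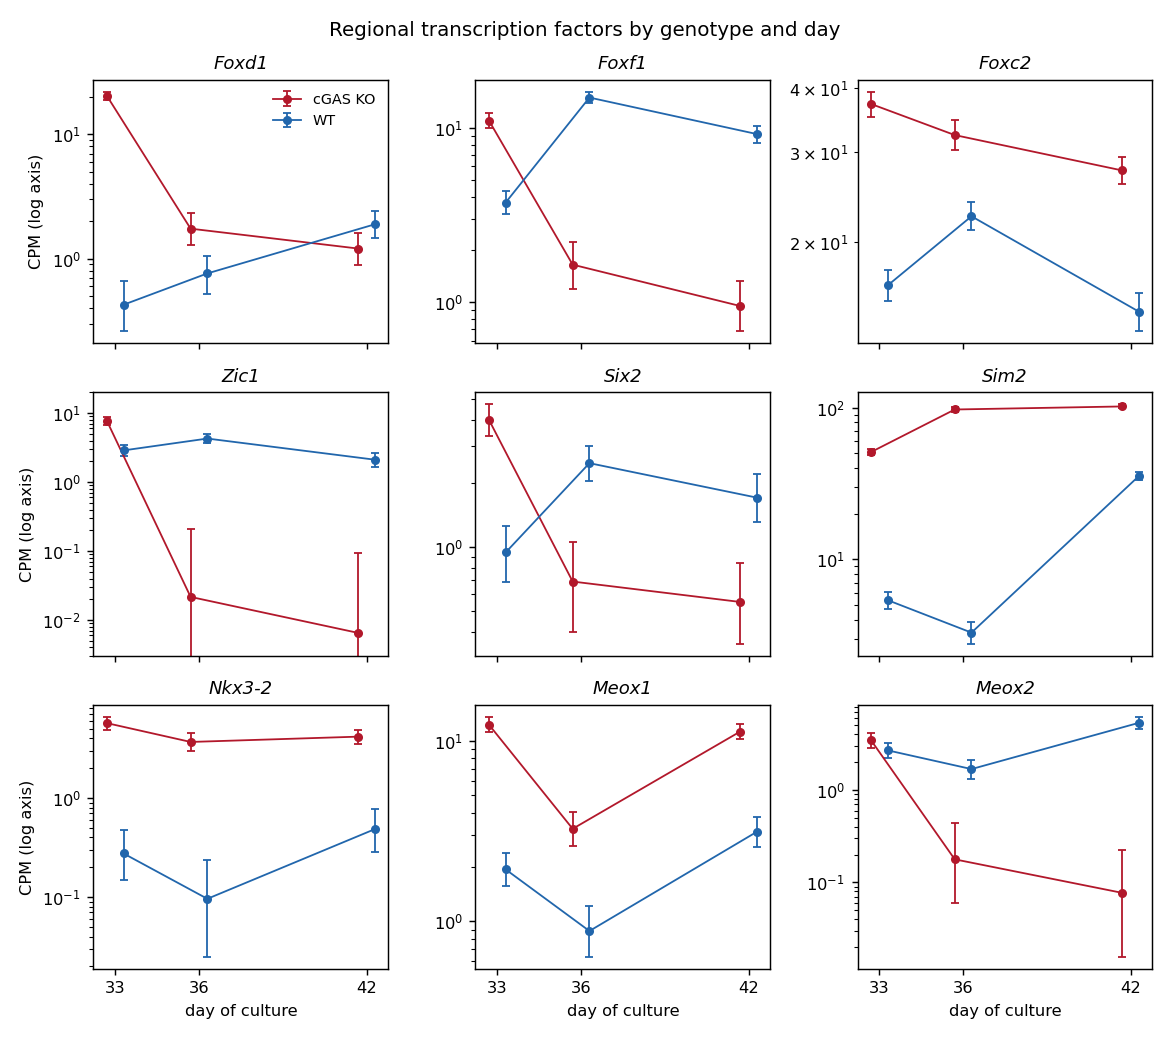
CPM of the 9 regional factors (log axes, a scale of its own in each panel) by day of culture in cGAS KO and WT, 1 library per point, with exact 95% Poisson intervals of the count. In KO, Foxd1, Foxf1, Zic1, Six2 and Meox2 are high on day 33 and low on days 36 and 42, while Sim2, Nkx3-2, Foxc2 and Meox1 lie above WT on all 3 days. The lower limits of Zic1 in KO on days 36 and 42 run off the axis.

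Foxd1, Zic1, Six2, Foxf1 and Meox2 were highest in KO on day 33, and were low there on days 36 and 42. Day 36 was 5.79-fold (Six2) to 19.5-fold (Meox2) below day 33 for 4 of them, and Zic1 was down to 1 count. Meox1 was low on day 36 alone. Sim2, Nkx3-2 and Foxc2 kept within 2-fold of their day 33 level in KO and were above WT on every day. These patterns chose the genes and are a description. In bulk RNA, fewer cells of a type and less RNA per cell cannot be told apart.

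Foxd1 (ENSMUSG00000078302, mm10 chromosome 13, 98354240 to 98356703, plus strand) is known as the forkhead factor of kidney stromal progenitors. Its level was 20.4, 1.75 and 1.21 CPM in KO over days 33, 36 and 42, against 0.428, 0.763 and 1.90 CPM in WT. KO day 33, with 684 counts, stood alone, and the 2 later KO values lay within the WT range. The level in KO was 11.7-fold lower on day 36 than on day 33 (counting interval 8.68 to 16.0). On day 33 it was 47.8-fold higher in KO than in WT (30.8 to 79.0), on day 36 2.29-fold higher (1.45 to 3.74), and on day 42 1.57-fold lower (1.06 to 2.30). In WT the 3 days stood in rising order, with day 42 4.43-fold above day 33 (2.65 to 7.71). The intervals of folds are exact at 95% and hold for counting error alone.

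Foxf1 (ENSMUSG00000042812, chromosome 8, 121084384 to 121088144, plus strand) is a forkhead factor of the gut wall and lung mesenchyme and a known target of hedgehog signalling. It was at 11.0, 1.64 and 0.953 CPM in KO, against 3.73, 14.9 and 9.20 CPM in WT. The genotypes went opposite ways after day 33, a difference that was not tested because each rests on 1 library per day. In KO the level was 6.69-fold lower on day 36 than on day 33 (4.90 to 9.39), whereas in WT it was 3.995-fold higher (3.37 to 4.74; log2 difference 1.98). KO exceeded WT 2.95-fold on day 33 (2.45 to 3.55), and was 9.06-fold lower on day 36 (6.68 to 12.6) and 9.66-fold lower on day 42 (6.81 to 13.7).

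Foxc2 (ENSMUSG00000046714, chromosome 8, 121116169 to 121118895, plus strand) acts in paraxial mesoderm and in lymphatic vessels. Its values were 37.2, 32.4 and 27.6 CPM in KO, against 16.4, 22.4 and 14.6 CPM in WT. The lowest KO library was above the highest WT library. Between days it varied by no more than 1.35-fold in KO and 1.54-fold in WT, the smallest range of the 9 genes in both genotypes.

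Zic1 (ENSMUSG00000032368, chromosome 9, 91358056 to 91365810, minus strand) is a zinc finger factor of the dorsal neural tube and dorsal somite. Its level was 7.76, 0.0217 and 0.00651 CPM in KO on the 3 days, against 2.89, 4.29 and 2.12 CPM in WT. The KO counts were 259, 1 and 0 after rounding, and the WT counts 135, 187 and 74. It was near its limit of detection in KO from day 36 on. The level in KO was 358-fold lower on day 36 than on day 33, with an interval of 36.9 to 8232 because it rests on 1 count. For day 42 no fold is given, because the KO count rounded to 0. The lower limit of the exact counting interval was 82.3-fold lower in KO on day 42 than on day 33. For KO against WT on day 42 it was 22.1-fold lower. With a floor of 3 counts put in for the KO library of day 42, these folds were 102 and 27.8, without counting error.

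Six2 (ENSMUSG00000024134, chromosome 17, 85684275 to 85688274, minus strand) keeps nephron progenitors undifferentiated and is also made in head and limb mesenchyme. It was at 3.99, 0.689 and 0.552 CPM in KO, against 0.945, 2.49 and 1.71 CPM in WT. Like Foxf1, it went opposite ways after day 33. It was 5.79-fold lower on day 36 than on day 33 in KO (3.61 to 10.3), and 2.64-fold higher in WT (1.86 to 3.87). The highest library held 133 counts, so these are coarse values, and no library reached 5 CPM.

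Sim2 (ENSMUSG00000062713, chromosome 16, 94085258 to 94127032, plus strand) is known for its part in midline and palate development. It was at 50.9, 97.2 and 102 CPM in KO, against 5.38, 3.29 and 35.5 CPM in WT. All KO values exceeded all WT values, and WT day 42 stood far above the 2 earlier WT days. In KO the level on day 42 was 1.999-fold that on day 33 (1.89 to 2.12), just short of the 2-fold limit used for counts. In WT it was 10.8-fold higher on day 42 than on day 36 (9.10 to 12.97). KO exceeded WT 9.46-fold on day 33 (8.29 to 10.9), 29.6-fold on day 36 (25.1 to 35.4) and 2.87-fold on day 42 (2.69 to 3.06).

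Nkx3-2 (ENSMUSG00000049691, chromosome 5, 41761481 to 41764501, minus strand), also called Bapx1, is a homeobox repressor of the sclerotome that favours cartilage. It was at 5.69, 3.68 and 4.16 CPM in KO, against 0.275, 0.0961 and 0.485 CPM in WT. Every KO library exceeded every WT library. The sums were 453 counts in KO and 34 in WT. KO was 20.7-fold higher on day 33 (11.7 to 39.2), 38.3-fold higher on day 36 (15.3 to 151) and 8.57-fold higher on day 42 (5.17 to 15.0).

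Meox1 (ENSMUSG00000001493, chromosome 11, 101877508 to 101894374, minus strand) and Meox2 (ENSMUSG00000036144, chromosome 12, 37108538 to 37179534, plus strand) are homeobox factors of the somite. Meox2 also acts in limb muscle. Meox1 was at 12.3, 3.25 and 11.2 CPM in KO, against 1.94, 0.883 and 3.13 CPM in WT. It was lowest on day 36 in both genotypes, and each KO library was above each WT library. In KO it was 3.78-fold lower on day 36 than on day 33 (2.99 to 4.82) and 3.46-fold higher on day 42 than on day 36 (2.74 to 4.41). The same 2 steps in WT were 2.19-fold lower (1.48 to 3.25) and 3.55-fold higher (2.403 to 5.17).

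Meox2 was at 3.46, 0.178 and 0.0771 CPM in KO, against 2.69, 1.68 and 5.34 CPM in WT. On day 33 the genotypes were close, with KO 1.29-fold higher and an interval of 0.994 to 1.67. On day 36 KO was 9.47-fold lower (3.67 to 28.5), and on day 42 69.2-fold lower, with an interval of 23.6 to 343 because 3 counts were left in KO. Within KO, the level on day 36 was 19.5-fold below that on day 33 (7.75 to 58.4).

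**Figure D2:**
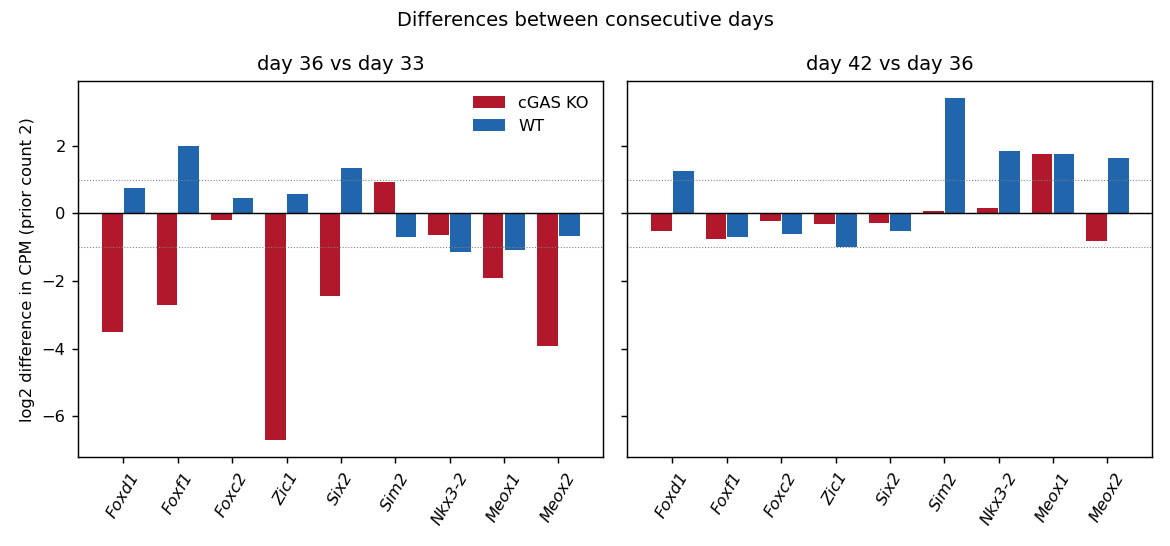
Log2 difference in CPM (prior count 2) between consecutive days for each factor, in cGAS KO and in WT, with 1 library per genotype and day; dotted lines mark 2-fold. On day 36 against day 33 the KO bars of Foxd1, Foxf1, Zic1, Six2, Meox1 and Meox2 pass the lower line. In WT, the bars of Foxf1 (1.98) and Six2 (1.35) pass the upper line, and those of Nkx3-2 (-1.14) and Meox1 (-1.09) the lower one. On day 42 against day 36 the largest bar is that of Sim2 in WT (3.41).

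The counts of genes past 2-fold put these steps beside all genes. Of the 7 factors that reached 5 CPM in either library, 4 were at least 2-fold lower in KO on day 36 than on day 33 and 0 higher, beside 2.34% of 11684 genes lower and 1.08% higher. The 4 were Foxd1, Zic1, Foxf1 and Meox1, and this is the contrast that chose the genes. A gene that reached 5 CPM in only 1 of the 2 libraries entered the count through the library where it was high, so the minimum itself favours that direction. This held for all 4 here, and for each factor counted past 2-fold in the other steps between days except Sim2 on day 42 against day 33 in WT. From day 36 to day 42 in KO, 1 of 3 factors, Meox1, was higher and 0 were lower, beside 0.414% and 0.483% of genes. Against day 33, KO day 42 had 3 of 7 lower and 0 higher, beside 2.62% and 1.44%.

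The genes were picked for steps within KO, but with the values of all 6 libraries known, so the WT steps too are a description. On day 36 against day 33 in WT, 1 of 3 factors at 5 CPM was higher (Foxf1) and 0 were lower, beside 0.326% of genes higher and 0.994% lower. On day 42 against day 36, 2 of 4 were higher (Sim2 at 10.8-fold and Meox2 at 3.17-fold) and 0 lower, beside 4.37% and 2.47%. With a minimum of 1 CPM, 4 of 8 were higher and 1 was lower in that step. On day 42 against day 33, 2 of 4 were higher (Sim2 at 6.59-fold and Foxf1 at 2.47-fold) and 0 lower, beside 3.02% and 2.07%, and with a minimum of 1 CPM 3 of 8 were higher and 0 lower. There is 1 library per day, so no test of these steps could be made. The median log2 difference of the 9 genes was -2.45 for day 36 against day 33 in KO and 0.45 in WT, and that of all genes tested was 0.007 and -0.002.

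Between genotypes on single days, all 7 factors at 5 CPM were higher in KO on day 33, beside 2.49% of genes higher and 4.1% lower; this comparison holds the KO day 33 library, which the choice of genes had used. Of the 7, 5 reached 5 CPM in KO only, so the minimum favoured their direction. Six2 and Meox2 did not reach it. On day 36, 1 of 3 was higher (Sim2) and 1 lower (Foxf1), beside 2.96% and 4.68% of genes. On day 42, 2 of 5 were higher (Sim2 and Meox1) and 2 lower (Foxf1 and Meox2), beside 3.04% and 6.5%. In these counts 2 of 2 and 3 of 4 of the factors past 2-fold reached 5 CPM in 1 genotype only. The median log2 difference of the 9 genes was 2.02 on day 33, 0.53 on day 36 and -0.63 on day 42.

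Over the 3 days, KO was compared with WT by edgeR's quasi-likelihood test, with genotype as the term and days as replicates. All 9 genes passed the filter on low counts. Nkx3-2 and Foxc2 were higher in KO and 0 were lower; 2 of 9 called stands beside 8.72% of 17233 genes (4.07% higher, 4.65% lower). An unadjusted p below 0.05 was found for 5 of the 9, each higher in KO, beside 12.8% of all genes higher and 14.5% lower. DESeq2 called 3 higher, beside 7.16% of genes higher and 8.75% lower, and gave Foxd1 no adjusted p. Limma-voom called 2 higher, beside 4% higher and 4.56% lower, and neither tool called any of the 9 lower. Nkx3-2 averaged 4.51 ± 1.06 CPM in KO and 0.286 ± 0.195 CPM in WT (SD, n = 3 each), a log2 fold change of 4.0 ± 0.52 (adjusted p = 0.0114). Foxc2 averaged 32.4 ± 4.83 CPM in KO and 17.8 ± 4.102 CPM in WT, a log2 fold change of 0.86 ± 0.19 (adjusted p = 0.0442). The call of Nkx3-2 was lost without the KO libraries of day 36 or 42 or the WT library of day 33 (log2 fold change 3.57 to 4.58 with any 1 library left out). That of Foxc2 was lost without any 1 library other than WT day 36 (0.74 to 1.06). The choice of genes had used the KO libraries, so this test is not independent of it. The labels do not call the days separate cultures, so these p-values reflect nothing but the spread of 6 libraries. That spread holds the change between days and passages and may be partly technical. It does not measure the spread between independent cultures.

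Among the 7 factors that were not called, Sim2 differed by 2.51 ± 0.90 on the log2 scale (adjusted p = 0.137) and was called without the WT library of day 42, at 4.27 (adjusted p = 0.0136). Meox1 had 2.18 ± 0.62 (adjusted p = 0.0817), and passed with day as a factor (adjusted p = 0.0184) and by DESeq2 (adjusted p = 0.00147). For Foxd1 it was 2.95 ± 1.22 (adjusted p = 0.179), a value that was 0.55 without the KO library of day 33. Zic1, at -0.25 ± 1.56, Foxf1, at -1.03 ± 0.95, Meox2, at -1.37 ± 1.198, and Six2, at 0.02 ± 0.80, had SEs near or above the size of the fold change. Without the KO library of day 33, Zic1 (-7.39, adjusted p = 0.0122) and Meox2 (-4.66, adjusted p = 0.0238) were called lower in KO. Foxf1 was called lower without day 33 in both genotypes (-3.23, adjusted p = 0.0374). With KO day 33 left out, only the KO days on which these genes were low remained. Their fall after day 33 in KO had helped to choose them, so these calls repeat the choice and support nothing. For 4 of the 9 genes, Sim2, Nkx3-2, Foxc2 and Meox1, the KO and WT values did not overlap, each higher in KO. Of all genes, 34.3% did not overlap, 17.3% higher and 17% lower in KO. The KO libraries had helped to choose the 9 genes, so this count is a description. The median log2 fold change of the 9 was 0.86, and that of all genes tested was -0.01.

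**Figure D3:**
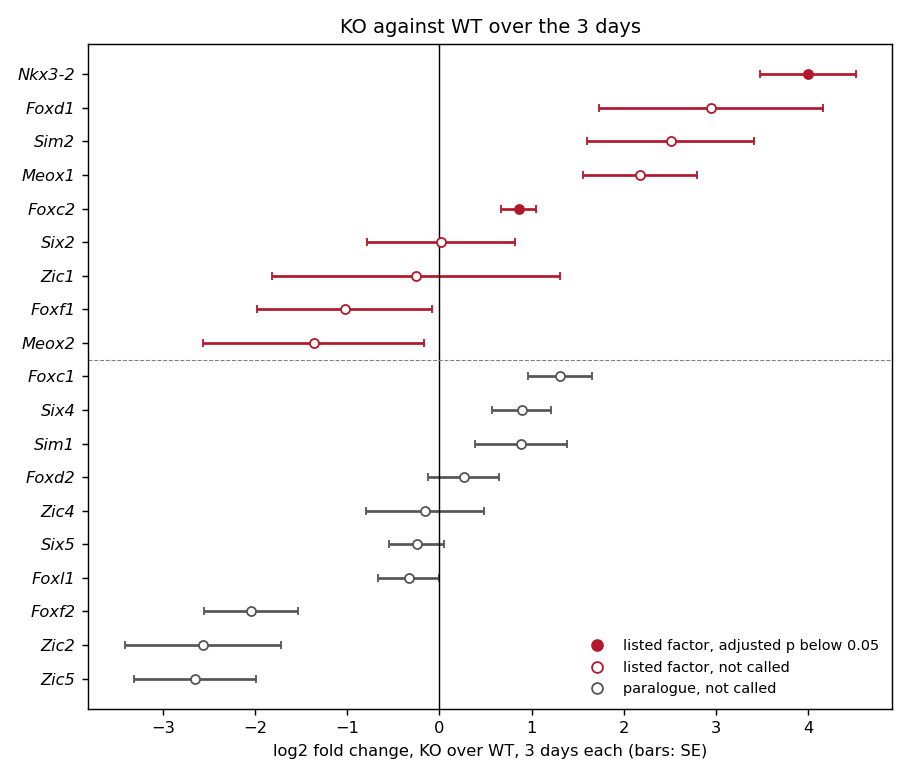
Log2 fold change of KO over WT with its SE (edgeR, 3 days per genotype) for the 9 regional factors above the dashed line and the tested paralogues named in the text below it; filled points have an adjusted p below 0.05. Only Nkx3-2 (4.0) and Foxc2 (0.86) are filled, and the widest bar among the 9 is that of Zic1 (SE 1.56).

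Levels of different genes can be set side by side per unit of length. In the authors' RPKM (reads scaled by gene length and library size, here the mean of the 4 columns), Sim2 ranked first of the 9 and Foxc2 second in all 3 KO libraries. Sim2 was at 7.27, 14.4 and 15.6 RPKM in KO, and Foxc2 at 7.18, 6.50 and 5.72 RPKM. On KO day 33 the 2 levels were close, and with 1 library their order could not be tested. In WT, Foxc2 ranked first on days 33 and 36 (3.08 and 4.01 RPKM), and Sim2 on day 42 (5.25 RPKM). Nkx3-2 was last of the 9 in each WT library, at 0.0274 to 0.154 RPKM, and Zic1 was last in each KO library, at 0.000651 to 0.724 RPKM.

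For 7 of the 9 genes there is a single transcript in the deposited transcript table. Six2 has a longer one of 2121 bases (ENSMUST00000163568) and a shorter one of 1815 bases. The longer took 69.9% of the Six2 count in KO on day 33, with an estimate of 0 on days 36 and 42. In WT it took 31.5, 100 and 82.2%. These shares rest on 18 to 133 counts, and the estimate may divide shared sequence between the 2 transcripts. Zic1 has 3 transcripts, of which those of 5609 and 2815 bases held 41.0 and 56.9% of the count in KO on day 33, against 49.9 and 48.4% in WT on that day.

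Foxf1 and Foxc2 are neighbours on chromosome 8, 31785 bases apart from start to start, and their values in KO parted after day 33. Fendrr, a long noncoding RNA transcribed away from Foxf1 on the other strand (chromosome 8, 121054880 to 121083110), starts 1274 bases from the Foxf1 start. Its counts were 9, 0 and 0 in KO, against 8, 22 and 41 in WT, low in KO on the same days as Foxf1. Mthfsd, which lies between the 2 genes, was at 28.1 to 30.8 CPM in KO and 25.4 to 33.4 CPM in WT. Foxl1, a further forkhead gene 11769 bases from Foxc2, was at 0.449 to 1.08 CPM in KO and 0.869 to 1.12 CPM in WT.

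**Figure D4:**
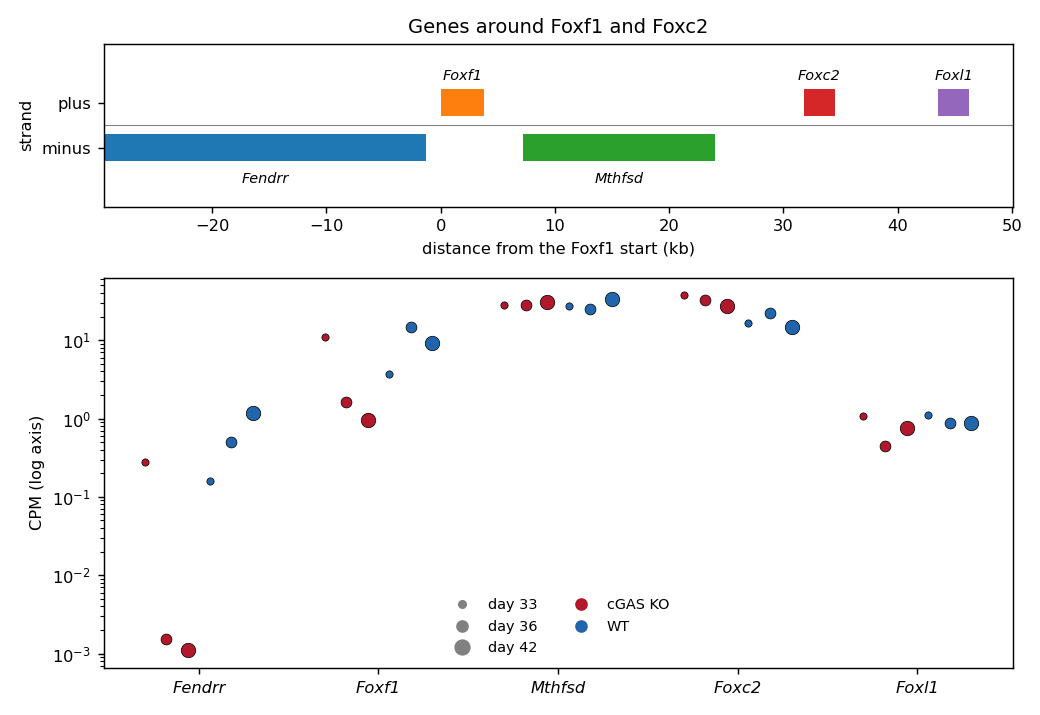
Top, positions of Fendrr, Foxf1, Mthfsd, Foxc2 and Foxl1 relative to the Foxf1 start, by strand; bottom, their CPM (log axis) in each library, larger points for later days. Fendrr and Foxf1 are low in KO on days 36 and 42 (the 2 lowest Fendrr points stand for 0 counts after rounding), while Mthfsd keeps between 25.4 and 33.4 CPM in all 6 libraries.

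Around all 9 genes, 47 other genes start within 100 kb, and 37 of them stayed under 1 CPM in every library. Of 11 tested, 0 were called by edgeR, by DESeq2 or by limma-voom, beside 8.72% of all genes by edgeR. An unadjusted edgeR p below 0.05 was found for 2, beside 27.3% of all genes. Zic4 overlaps Zic1 on the opposite strand. Its counts were 33, 5 and 8 in KO, against 21, 23 and 20 in WT. The sources used here give no strand setting for the counting, so reads of Zic1 and Zic4 cannot be told apart with certainty.

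The closest relatives of the 9 genes gave a mixed picture. Of 16 paralogues, 11 were tested and 0 were called by edgeR, beside 8.72% of all genes. An unadjusted edgeR p below 0.05 was found for 6, beside 27.3% of all genes. DESeq2 called 3 higher and 3 lower, beside 7.16% and 8.75% of genes, and limma-voom 1 lower, beside 4.56%. Foxc1, the partner of Foxc2 in somites and vessels, was at 73.3, 70.6 and 50.7 CPM in KO, against 14.4, 26.6 and 37.6 CPM in WT (log2 fold change 1.31 ± 0.35, adjusted p = 0.0682). All KO values of Foxc1 exceeded all WT values.

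Foxf2, which acts beside Foxf1 in the gut wall, was at 1.64, 0.693 and 0.364 CPM in KO, against 3.33, 3.88 and 3.96 CPM in WT (-2.04 ± 0.51, adjusted p = 0.0579). Zic2 was at 0.624, 0.0823 and 0.0566 CPM in KO, against 0.887, 2.32 and 1.31 CPM in WT, so it too was lowest in KO after day 33. For Zic5 the log2 fold change was -2.65 ± 0.67 (adjusted p = 0.0591). Six4 (0.89 ± 0.32), Sim1 (0.89 ± 0.50), Foxd2 (0.26 ± 0.38), Six5 (-0.25 ± 0.30), Foxl1 (-0.33 ± 0.33) and Zic4 (-0.16 ± 0.64) were not called, although Six4 passed with day as a factor (adjusted p = 0.0388) and by DESeq2 (adjusted p = 0.0405). Foxd3, Six3 and Six6 were among those that did not pass the filter on low counts. The median of the 11 was -0.16. Without the KO library of day 33, 2 paralogues were called lower.

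Among 34 other factors of somites, limbs and body wall, 23 were tested, with a median log2 fold change of -0.92. Of these, 2 were higher in KO and 6 lower, beside 4.07% of all genes higher and 4.65% lower. Dlx5, a factor of limb and bone, was higher (3.39 ± 0.48, adjusted p = 0.014), as was Scx, the tendon factor (1.68 ± 0.27, adjusted p = 0.0182). En1, which marks ventral limb ectoderm and dorsal trunk dermis, was at 1.39, 1.03 and 0.831 CPM in KO, against 18.7, 13.01 and 12.2 CPM in WT (-3.75 ± 0.27, adjusted p = 0.00481). Tbx18, a somite and mesothelial factor (-2.13 ± 0.18, adjusted p = 0.00643), and Shox2, a factor of the proximal limb (-4.14 ± 0.57, adjusted p = 0.0131), were lower too. Without the KO library of day 36 the list had 0 calls in either direction, and without the KO library of day 42 or the WT library of day 33 it had 0 higher and 2 lower. Without the KO library of day 33 it had 3 higher and 9 lower.

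In the same list, Pax1, a factor of the ventral sclerotome that acts upstream of Nkx3-2, was at 5.19, 0.0116 and 0.156 CPM in KO, against 0.213, 0.191 and 0.810 CPM in WT. Its KO pattern over days was that of Foxd1, high on day 33 alone, and not that of Nkx3-2. Lmx1b, which sets dorsal limb identity, was at 1.03, 0.0427 and 0 CPM in KO, against 6.82, 2.15 and 6.62 CPM in WT. Msx1, a factor of limb and craniofacial mesenchyme, was at 0.115 CPM in KO on day 42, against 10.9 CPM in WT.

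Cofactors that work with the listed factors were taken as a further list. Of 12, all tested, 2 were higher in KO and 1 was lower, beside 4.07% of all genes higher and 4.65% lower. Their median log2 fold change was -0.23. Eya4, a coactivator of homeobox factors, was at 86.9, 121 and 129 CPM in KO, against 13.1, 19.3 and 40.0 CPM in WT (2.22 ± 0.42, adjusted p = 0.0299). Tle1, a corepressor, was higher (0.69 ± 0.10, adjusted p = 0.0148), and Dach2, a further partner of Eya proteins, was lower (-1.80 ± 0.38, adjusted p = 0.0392). Arnt2, with Arnt the DNA-binding partner of Sim2, was at 47.4, 69.9 and 70.2 CPM in KO, against 21.4, 33.9 and 53.4 CPM in WT, and was not called (adjusted p = 0.195). All 3 calls were lost without the KO library of day 36 or 42 or the WT library of day 33, those of Eya4 and Dach2 also without that of WT day 36. With day as a factor Dach2 was not called (adjusted p = 0.0759).

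The hedgehog pathway was listed because Foxf1 and Nkx3-2 respond to it in embryos. Of its 14 genes, 10 were tested, 0 were higher and 1 was lower, beside 4.07% of all genes higher and 4.65% lower. The median of the 10 was 0.12. Hhip, a target and decoy receptor of hedgehog proteins, was lower, at -1.18 ± 0.27 on the log2 scale (adjusted p = 0.0457), a call lost when any library other than KO day 33 was left out and with day as a factor (adjusted p = 0.0556). The targets Ptch1 (0.22 ± 0.18) and Gli1 (0.81 ± 0.34) were not called. The coreceptors Gas1 and Cdon were high in WT on day 42: Gas1 was at 134 CPM there, against 13.9 CPM on WT day 36, and Cdon at 112 CPM, against 32.8 CPM. Gli2 was at 30.2 CPM in KO on day 36, against 9.37 CPM in WT.

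Of the 8 fibroblast markers, 1 was called, S100a4, which was lower in KO (-0.92 ± 0.13, adjusted p = 0.0133), beside 4.65% of all genes lower. The list had 0 calls without the KO library of day 36 or 42 or the WT library of day 33. It had 2 lower with day as a factor and 4 lower by DESeq2, the latter beside 8.75% of genes. Its median log2 fold change was -1.02. An unadjusted edgeR p below 0.05 was found for 5 of the 8, each lower in KO, beside 14.5% of all genes lower. Dcn, a matrix proteoglycan, was at 7.59, 12.8 and 18.4 CPM in KO, against 72.0, 23.7 and 170 CPM in WT, and was not called (adjusted p = 0.0658). Lum (-3.05 ± 1.18), Pdgfra (-1.63 ± 0.51) and Thy1 (-1.12 ± 0.28) were not called either, and the collagens Col1a1 (-0.16 ± 0.20) and Col1a2 (-0.02 ± 0.15) had SEs above the size of the fold change.

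Markers of other cell types moved with some of these steps. The 6 cartilage markers summed to 1170, 185 and 134 CPM in KO, against 89.0, 88.1 and 93.6 CPM in WT, and their sum in KO was high on day 33 alone, as were Foxd1, Zic1, Six2, Foxf1 and Meox2. Most of it was Col2a1, at 1092, 130 and 91.4 CPM in KO, against 51.7, 60.1 and 69.8 CPM in WT. Acan was at 26.5, 1.12 and 1.15 CPM in KO, against 5.41, 1.04 and 0.887 CPM in WT, while Sox9, the defining factor, stayed at 33.5 to 42.1 CPM in KO and 16.7 to 24.4 CPM in WT. Matn1 was at or near 0 in all libraries. By edgeR, 2 of 5 tested cartilage markers, Sox9 and Comp, were higher in KO, beside 4.07% of all genes. No call was left without the KO library of day 36 or 42 or the WT library of day 36. Without that of WT day 33, 1 was left.

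The 8 macrophage markers found in the table summed to 55.1, 6.34 and 5.32 CPM in KO, against 121, 26.9 and 9.12 CPM in WT. Lyz2 made up much of it, at 28.2, 0.0559 and 0.0127 CPM in KO, against 69.7, 12.6 and 1.67 CPM in WT. This sum was higher on day 33 than later in both genotypes. The part of fibroblast, cartilage or macrophage markers in the values of the 9 genes was not tested. Endothelial markers summed to 6.87 to 12.0 CPM in KO and 13.4 to 15.1 CPM in WT, with Cldn5 at 0 throughout. Skeletal muscle markers summed to 91.5 to 135 CPM in KO and 115 to 146 CPM in WT, nearly all of it Actn2, with Myod1 at 0 throughout. The sum hides Des, at 7.14, 1.22 and 0.625 CPM in KO, against 3.41, 2.10 and 1.19 CPM in WT. Actn2 itself was at 127, 114 and 90.3 CPM in KO, against 131, 143 and 113 CPM in WT.

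Epithelial markers summed to 26.6, 47.3 and 32.2 CPM in KO, against 20.8, 26.4 and 7.49 CPM in WT, and mesothelial ones to 2.76, 5.31 and 4.43 CPM in KO, against 1.43, 1.60 and 1.63 CPM in WT. Neural and neural crest markers, mostly Nes, summed to 255, 473 and 454 CPM in KO, against 221, 374 and 151 CPM in WT. Smooth muscle and pericyte markers, mostly Acta2, summed to 4206, 3497 and 2521 CPM in KO, against 4869, 6495 and 4576 CPM in WT. By edgeR, 1 of 3 tested mesothelial markers (Wt1) was higher in KO and 2 of 6 smooth muscle markers (Cnn1 and Myh11) were lower. Of all genes, 4.07% were called higher and 4.65% lower. The mesothelial list had 0 calls when any library other than KO day 33 was left out. The smooth muscle list had 0 without the KO library of day 36 or 42 or the WT library of day 33 or 36. Without that of WT day 42 it had 1. None of these 4 sums was high in KO on day 33 and low on both later days to the extent of the cartilage sum.

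**Figure D5:**
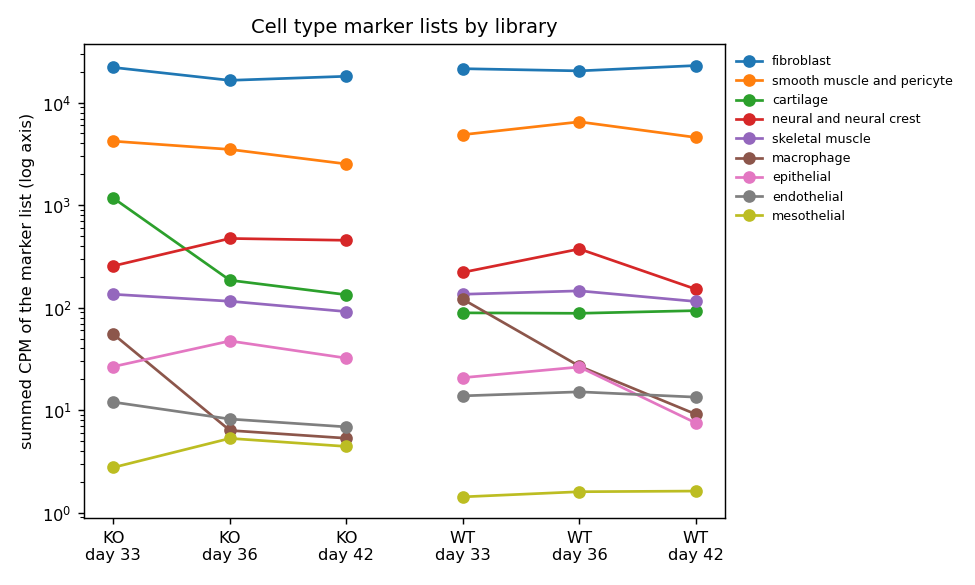
Summed CPM (log axis) of 9 lists of cell type markers in the 6 libraries, KO on the left and WT on the right. In KO the cartilage sum is 1170 CPM on day 33 and 134 CPM on day 42, and the macrophage sum is 55.1 CPM on day 33 and 5.32 CPM on day 42, while the fibroblast sum, mostly of collagens, keeps between 16500 and 23000 CPM in all libraries.

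Cdkn2a and Cdkn1a, inhibitors of the cell cycle that mark senescent fibroblasts, were lower in KO. Cdkn2a was at 40.3, 44.2 and 37.6 CPM in KO, against 109, 100 and 84.8 CPM in WT (log2 fold change -1.27 ± 0.12, adjusted p = 0.00824). Cdkn1a was at 409, 328 and 269 CPM in KO, against 579, 592 and 501 CPM in WT (-0.73 ± 0.17, adjusted p = 0.0478). Both calls were lost without the KO library of day 36 or 42, that of Cdkn1a also without any WT library. Neither gene had the sharp step of Zic1 or Foxd1 between days 33 and 36 in KO.

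The genes whose pattern was most like that of each factor were taken by Pearson's r of log2 CPM over the 6 libraries, among 2317 genes that ranged over 2-fold and reached 5 CPM. With 6 libraries many genes reach a high r, and 58 genes exceeded 0.95 with Sim2 alone, so this is a description. None of the factors that reached 5 CPM was among the 5 nearest genes of another. Six2 did not reach it, so it could not be among them. Foxd1 was nearest to Fam132b (r = 0.98), Col2a1 (0.96), Serpinb9, Plagl1 and Cxcl12. Col2a1 is both a cartilage marker and a near match of Foxd1. Among the 5 genes nearest to Zic1 were Prr5l (0.99), Eng (0.99), Fam19a5 and Ttll11. Eng, a TGF-beta coreceptor, was at 29.1, 2.36 and 1.95 CPM in KO, against 23.0, 35.6 and 25.3 CPM in WT.

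Meox2 was nearest to Avpr1a (r = 0.99), Hoxd13 (0.99), Mmp3, Ecm1 and Lmcd1. Hoxd13, which patterns the distal limb, was at 9.10, 0.0399 and 0.00469 CPM in KO, against 21.7, 5.81 and 31.2 CPM in WT, and like Zic1 it was near 0 in KO after day 33. Foxf1 was nearest to Olfm2 (0.97), Tmem151a, Akap6, Dusp27 and Gpr39. Sim2 was nearest to Arhgap32 (0.9985), Ackr3 (0.9965), Emilin1, Apobec3 and Pde1a. Ackr3, a scavenger receptor for the chemokine Cxcl12, was at 57.5, 72.5 and 78.7 CPM in KO, against 14.5, 12.5 and 39.8 CPM in WT.

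Nkx3-2 was nearest to Lrrc7 (r = 0.99), Eva1c, Pole2, Wnt16 and Adgrl2, of which Wnt16 was at 30.4, 22.5 and 33.7 CPM in KO, against 1.70, 0.894 and 6.17 CPM in WT. Foxc2 was nearest to Tnfaip6 (0.99), Pik3c2a, Loxl4, Ctnnd2 and Klc3. Meox1 was nearest to Il17rd (0.98), Kif21b, Zim1, Msi1 and Gpc3. Gpc3, a glypican that restrains growth, was lowest on day 36 in both genotypes, at 15.0 CPM in KO and 3.02 CPM in WT. Six2 was left out because it stayed under 5 CPM.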

How the data were processed

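RNA sequencing of cGAS KO and WT MEFs gave 24 samples in 6 groups of 4, grouped by the labels. The deposited gene and transcript tables hold estimated counts, fractional and with no normalization, per the file headers. They also deposited RPKM, per the file headers, used here only for levels per length. Build mm10 and the tools Bowtie2 2.2.1 and limma 3.18.13 come from the submitters' processing notes, with no role stated. No source used here gives the counting program, the annotation release or the strand setting. Reads shared by near-identical or overlapping genes may therefore be split.

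Over 12385 to 13738 genes with at least 80 counts, the 4 columns of a group gave a chi-square per degree of freedom of 0.832 to 0.843, against 12.8 to 67.0 between groups. Of 33 values of the 9 genes with 80 counts or more, 0 differed between columns at an unadjusted chi-square p below 0.05 (lowest p = 0.137). The columns were summed to 6 libraries of 25651250 to 48717439 counts, whose number limits the precision.

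Summed counts were rounded and KO compared with WT in edgeR 4.0.16 (R 4.3.3; TMM, filterByExpr, quasi-likelihood test with robust dispersions, the term being genotype), with Benjamini-Hochberg adjustment over all 17233 genes and a threshold of 0.05. The test was checked on simulated counts, where it recovered 50 of 50 changed genes at each log2 size of -3, -2, 2 and 3. The changed genes averaged at least 5 CPM before the change and had the same fold in all KO libraries. The check therefore does not show the power for lower genes, for smaller folds or for genes that shift between days. CPM were computed from the library total multiplied by its TMM factor. Single libraries were compared by log2 CPM (prior count 2), counting genes past 2-fold that reached 5 CPM, and by exact 95% Poisson or binomial intervals, which cover counting error only. The alternatives used DESeq2 1.42.0, limma-voom (limma 3.58.1), other scalings, filters and folds, day as a factor, left-out libraries, days or columns, and 24 separate columns. Leaving out a library leaves a fit with 5 libraries that pools the spread.

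The 9 genes, the gene lists and the tests were chosen with earlier results of these data known. The text names the 9 genes, their paralogues, up to 4 called members of each other list by adjusted p and up to 3 by the largest difference between single libraries, neighbours within 100 kb, the 5 most alike genes of each factor, Mb21d1, Cdkn2a and Cdkn1a. Scx, Arnt2, Ptch1, Gli1, Xist, Uty and the cell type markers given singly were chosen with their values known. Not every gene chosen by these rules is reported here.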

Additional observations from a re-analysis of the deposited data

Results flagged for a closer look

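Foxf1 and Six2 went opposite ways between days 33 and 36 in the 2 genotypes. For Foxf1 the log2 difference of day 36 against day 33 was -2.70 in KO and 1.98 in WT, a gap of -4.69. For Six2 it was -2.45 in KO and 1.35 in WT, a gap of -3.80. Each rests on 1 library per genotype and day, so the difference was not tested, and the change in KO had helped to choose these genes.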

How the results depend on the processing

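Of the genes called between genotypes over the 3 days, 2 were among the 9 factors. This count was 1 with a minimum of 5 CPM in 3 libraries and 1 without replicate 1 of each library, and 0 to 3 with a library or a day left out. The direction changed too. Without day 33, 0 were higher in KO and 2 lower, and without the KO library of day 33, 1 was higher and 2 lower. The 1503 calls among all genes were 2817 by DESeq2, and 3 (without day 36) to 1811 (without the KO library of day 33) with a library or a day left out. With 24 columns as separate samples, 9 factors (5 higher and 4 lower in KO) and 11107 genes were called, and with a replicate block 9 and 11103. Those counts reflect sampling noise within libraries. The replicate numbers did not pair the samples: over 11600 genes, deviations of same-numbered columns correlated at -0.03 to 0.04 (median 0.003), so the block is given here only.

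The log2 fold change of Six2, near 0, turned negative with day as a factor (-0.45), by limma-voom (-0.46), over 24 columns with or without the block (-0.48), and without replicate 2 (-0.025) or 4 (-0.039). With a library or a day left out it ran from -1.79 to 0.77, that of Zic1 from -7.42 to 0.62, Zic4 from -1.48 to 0.32, Foxd2 from -0.35 to 0.73, Six5 from -0.41 to 0.15 and Mthfsd from -0.051 to 0.16. None of these 6 genes was called in the test over 3 days, and the cause of these turns was not tested.

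Counts of factors past the fold limit moved with the minimum level and with the fold limit itself. With no minimum CPM they were 5 for KO day 42 against 33, 4 for WT day 36 against 33, 6 for WT day 42 against 36, 8 for KO against WT on day 36 and 7 on day 42. With a minimum of 1 CPM they were 5, 3, 5, 8 and 7. At 1.5-fold they were 2 for WT day 36 against 33 and 4 for WT day 42 against 36. At 4-fold they were 0 for KO day 42 against 36 and for WT day 36 against 33, 1 for WT day 42 against 36 and for WT day 42 against 33, and for KO against WT 4 on day 33 and 2 on day 42. Other prior counts, size factors and left-out columns kept these counts within 1.5 times. Library totals without TMM moved the median of all genes by up to 0.17 (log2, KO against WT on day 36). By Spearman's rho, 0 to 3 of the 5 most alike genes of a factor had the top value, which 1 (Foxd1) to 61 (Sim2) genes reached. Low counts limit Zic1, Six2, Meox2 and Nkx3-2 most.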
